A study of Rattus norvegicus with 6 samples.

Results

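Transcript levels of 10 genes of cell-matrix adhesion were described in rat spinal cord cultures grown on multi-walled carbon nanotubes. They comprise the integrin alpha subunits Itga1, Itga5, Itga6, Itga7 and Itgav, the beta subunits Itgb1 and Itgb5, and the focal adhesion proteins Pxn, Vcl and Tln1. The genes were chosen by name and were matched by symbol in the array annotation, where each of the 10 had at least 1 probe set (a group of short probes against 1 transcript) paired with that gene alone. They are 10 of the 14217 genes that could be measured in this way, with 22 of 20826 single-gene probe sets. Where a gene had several, the probe set of highest mean stands for it and is called the lead.

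Spinal cords of newborn rats (postnatal day 1 to 4) were dissociated, plated and kept for 8 days in vitro, and the total RNA of each was measured on 1 Affymetrix rat array. Of the 6 cultures, 3 (CNT 1, CNT 2 and CNT 3) grew on coverslips covered with carbon nanotubes and 3 (control 1, control 2 and control 3) on coverslips covered with polyornithine, a positively charged polymer to which cells attach. No other treatment separates the groups, and the methods of the study name serum and nerve growth factor in the medium of both. The labels call the cultures biological replicates of Sprague-Dawley rats, whereas the methods name Wistar rats, and the whole mixed culture, glia and other non-neuronal cells included, went into each RNA sample.

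Integrins are receptors of 1 alpha and 1 beta subunit that span the cell membrane. Outside the cell they bind matrix proteins such as collagen, laminin, fibronectin and vitronectin, and the alpha subunit largely sets which of them is bound. Inside, talin binds the tail of the beta subunit, vinculin ties talin to actin filaments and paxillin gathers signalling proteins at the resulting focal adhesion. In the developing spinal cord these receptors take part in the attachment, migration and process growth of neurons and glia. The comparison asks whether the transcripts of this machinery differ between a nanotube and a polyornithine substrate.

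The 6 arrays correlated between 0.969 and 0.994 across the 14217 genes, and markers of neurons, astrocytes and myelin were measured on all of them. Map2 lay between 11.01 and 11.63 log2 in CNT cultures and between 11.49 and 11.64 in control cultures. Gap43, also a neuron marker, lay between 11.75 and 12.07 in CNT cultures and between 11.48 and 11.84 in control cultures. Of the astrocyte markers, Gfap lay between 13.70 and 14.38 in CNT cultures and between 13.87 and 14.35 in control cultures. Gja1 lay between 13.93 and 14.10 in CNT cultures and between 14.05 and 14.23 in control cultures. Mbp lay between 14.22 and 14.72 in CNT cultures and between 14.34 and 14.56 in control cultures. The signal of beta-actin at its 3' end minus that at its 5' end, which grows as RNA degrades, was 0.92, 2.20 and 1.72 log2 in CNT 1, CNT 2 and CNT 3, against 2.20, 0.62 and 0.66 in control 1, control 2 and control 3. The poly-A spike-in RNA, which is added to a sample before labelling, averaged 8.22, 10.52 and 11.20 log2 in CNT cultures and 7.62, 7.09 and 11.27 in control cultures, so that CNT 2, CNT 3 and control 3 stood apart from the other arrays. The part of these differences in the results that follow was not tested beyond the refits that are given with them. With RNA of whole cultures, fewer cells of a type and less RNA per cell cannot be told apart.

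None of the 10 genes passed the test between CNT and control cultures. The test was limma's moderated linear model on the log2 values, with Benjamini-Hochberg adjustment of the p-values over all 14217 genes and a threshold of 0.05. It called 0% of all genes as higher and 0% as lower, and no adjusted p was under 0.847. Before adjustment, 0 of the 10 genes had a p under 0.05, where 2.41% of all genes were higher and 0.71% lower in CNT cultures. That count of 0 was not stable. Itga1 had an unadjusted p under 0.05 in several of the 19 refits, joined by Vcl without CNT 3, while none passed after adjustment. Without CNT 3, 515 of all genes were higher and 412 lower at that level, beside 342 and 101 in the fit of all arrays. No gene of the 10 had CNT and control arrays that did not overlap, against 5.94% of all genes with every CNT array above and 2.05% with every CNT array below the control arrays. The mean was lower in CNT cultures for 7 of the 10 genes, beside 41.5% of all genes, and the median log2 fold change was -0.046 for the 10 genes and 0.030 for all genes. The median deviation of the 10 genes on an array had an SD of 0.063 log2 among arrays of a group, more than the size of their median difference. Standard errors of the single genes ran from 0.096 to 0.49 log2. Of the 10, 9 differed by less than 1.5-fold and 7 by less than 1.1-fold, beside 95.8% and 62.3% of all genes. A two-sided exact permutation test on 1 gene has a smallest possible p of 0.1 with groups of this size.

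**Figure D1:**
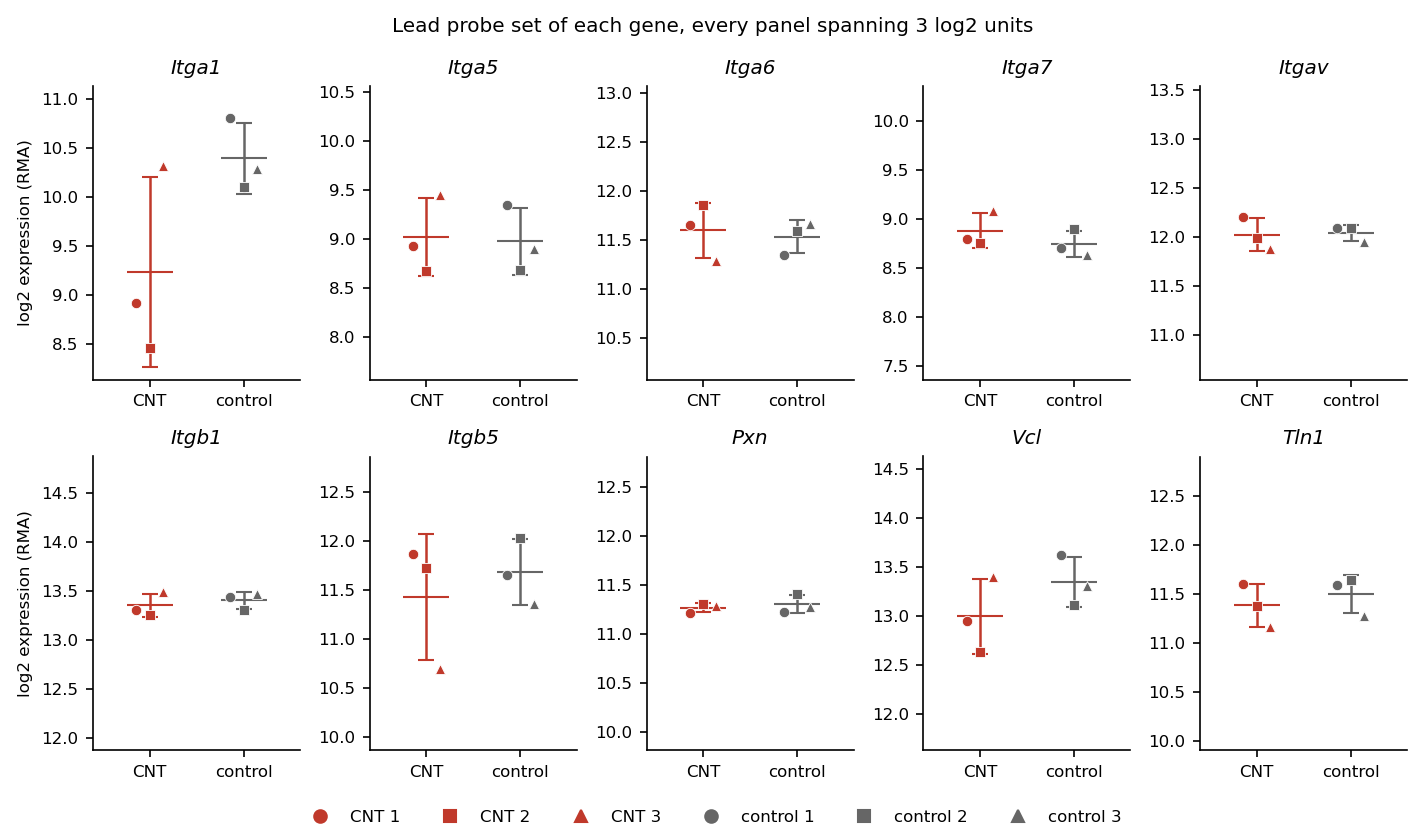
Log2 expression (RMA) of the lead probe set of each gene in 3 CNT and 3 control cultures, with points for single arrays, a horizontal line for the mean and bars for 1 SD. Every panel spans the same height, and the CNT arrays of Itga1 spread from 8.46 to 10.32 while the 6 arrays of Pxn lie between 11.21 and 11.41.

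Itga1 had the largest difference of the 10 genes and also the widest spread among CNT cultures. Its product pairs with the Itgb1 product to a receptor for collagens and laminin that is typical of fibroblasts, smooth muscle and other mesenchymal cells. Its level was 8.91, 8.46 and 10.32 log2 in CNT 1, CNT 2 and CNT 3, against 10.80, 10.10 and 10.28 in control 1, control 2 and control 3. CNT 1 and CNT 2 lay more than 1 log2 unit below every control array, while CNT 3 lay within the control range. The means were 9.23 ± 0.97 in CNT cultures and 10.39 ± 0.36 in control cultures (SD, n = 3 each). The log2 fold change was -1.16 (SE 0.49, 95% interval -2.35 to 0.02), a level in CNT cultures of 0.446 of that in control cultures with an interval from 0.196 to 1.02. By limma the unadjusted p was 0.0536 and the adjusted p 0.999. It was more than 2-fold lower in CNT cultures, as were 0.274% of all genes, while 0.746% were more than 2-fold higher. Without CNT 3 the log2 fold change was -1.71 and without CNT 2 it was -0.78. It was -0.89 among the arrays with high spike-in signal (CNT 2, CNT 3 and control 3) and -1.54 among the others (CNT 1, control 1 and control 2). Each of these classes has a single array of 1 group, control 3 in the first and CNT 1 in the second. The log2 fold change was -0.58 without CNT 2 and control 1, the arrays with the largest beta-actin difference.

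The sequence upstream of Itga1 is shown beside that of Itgb1, the gene of its obligate partner, since the first had the largest difference of the 10 genes and the second 1 of the narrowest ranges over the 6 arrays. Both are RefSeq sequence of the rat assembly GRCr8, 5' to 3' on the strand of the gene and ending at the base before its outermost annotated start. CG dinucleotides stand in capitals.
Itga1: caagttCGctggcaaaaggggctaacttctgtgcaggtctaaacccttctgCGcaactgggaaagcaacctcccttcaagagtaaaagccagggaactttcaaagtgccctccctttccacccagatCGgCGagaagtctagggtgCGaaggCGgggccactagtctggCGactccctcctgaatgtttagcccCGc
Itgb1: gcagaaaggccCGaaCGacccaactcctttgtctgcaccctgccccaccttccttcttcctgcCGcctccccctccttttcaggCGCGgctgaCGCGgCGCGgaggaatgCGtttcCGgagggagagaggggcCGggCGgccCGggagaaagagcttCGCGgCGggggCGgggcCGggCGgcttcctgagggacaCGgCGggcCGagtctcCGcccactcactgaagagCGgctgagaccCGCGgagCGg
The Itga1 stretch (chr2:48545337-48545533, minus strand, 197 bases) holds 8 CG dinucleotides and has a GC content of 55.8%. The Itgb1 stretch (chr19:73602027-73602276, plus strand, 250 bases) holds 28, with a GC content of 71.2%. Of the 10 genes, 8 were matched in the table of promoters, and Itga6 and Itga7 were not analysed here. Over their windows of 250 bases the GC content ran from 53.2% at Tln1 to 74.4% at Itgb5, and the number of CG dinucleotides from 7 to 33. Unlike the stretches shown, these windows were not cut at the outermost annotated start. Those of Itga1, Pxn and Vcl therefore reach into the gene. Vcl, with the second largest difference of the 10 genes, had 68.4% GC and 28 CG dinucleotides. Any relation of this composition to the differences was not tested. All 33469 promoters of the table had a median of 51.2% GC and 5 CG dinucleotides.

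The fibronectin and laminin receptor subunits Itga5, Itga6 and Itga7 differed by less than the spread between cultures. Itga5 encodes the alpha subunit of the main fibronectin receptor. Its level was 8.94, 8.67 and 9.46 log2 in CNT cultures, against 9.35, 8.69 and 8.90 in control cultures, with a log2 fold change of 0.04 (SE 0.26, 95% interval -0.58 to 0.67, adjusted p = 0.999 by limma). The highest array of Itga5 was CNT 3 and the lowest was CNT 2, so that the CNT group spanned the whole control group. Itga6 encodes a laminin receptor subunit that is found on neural precursors and glia, and its level was 11.64, 11.85 and 11.29 log2 in CNT cultures and 11.34, 11.59 and 11.66 in control cultures. Here too both extremes were CNT arrays, CNT 2 being highest and CNT 3 lowest, and the log2 fold change was 0.06 (SE 0.17, 95% interval -0.36 to 0.49). Itga7, best known as the laminin receptor subunit of muscle, had 8.80, 8.76 and 9.08 log2 in CNT cultures and 8.71, 8.90 and 8.63 in control cultures. CNT 3 was highest and control 3 lowest, and the log2 fold change of 0.13 (SE 0.13, 95% interval -0.19 to 0.46) was the highest of the 10 genes. The upper ends of the 3 intervals correspond to 1.59-fold for Itga5, 1.40-fold for Itga6 and 1.37-fold for Itga7, and the lower ends to 0.668, 0.779 and 0.877. The direction of Itga5 turned without CNT 3 (-0.17) and without control 2 (-0.10), and that of Itga6 without CNT 2 (-0.064) and without control 1 (-0.030).

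Among the subunits of the vitronectin receptors and the common beta subunit, Itgav and Itgb1 had narrow ranges and Itgb5 a wide one. The Itgav product forms receptors for vitronectin and other ligands of the RGD type with several beta subunits, that of Itgb5 among them. The Itgav level was 12.20, 11.98 and 11.87 log2 in CNT cultures and 12.09, 12.09 and 11.95 in control cultures, and the log2 fold change was -0.02 (SE 0.12). Its 95% interval ran from -0.31 to 0.27, or from 0.806- to 1.21-fold, and its direction turned without CNT 3 (0.053), without control 1 (0.0049) and without control 2 (0.0012). Itgb5 had 11.87, 11.73 and 10.69 log2 in CNT cultures, against 11.66, 12.04 and 11.36 in control cultures. CNT 3 was the lowest array and control 3 the next, while CNT 1 and CNT 2 lay among the other control arrays. The Itgb5 log2 fold change was -0.26 (SE 0.35, 95% interval -1.10 to 0.59), and it was 0.11 without CNT 3. Itgb1 encodes the beta subunit that Itga1, Itga5, Itga6 and Itga7 products share. Its 6 arrays lay within 0.23 log2, at 13.31, 13.26 and 13.49 in CNT cultures and 13.44, 13.31 and 13.47 in control cultures. The groups overlapped, with CNT 2 lowest and CNT 3 highest, and the log2 fold change was -0.05 (SE 0.11, 95% interval -0.32 to 0.21, adjusted p = 0.999 by limma). In fold terms this interval runs from 0.803 to 1.15.

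Of the 3 focal adhesion proteins, Pxn was the most even of all 10 genes and Vcl had the second largest difference. Pxn encodes paxillin, an adaptor that binds kinases and other signalling proteins at adhesion sites. Its level was 11.21, 11.30 and 11.29 log2 in CNT cultures and 11.22, 11.41 and 11.27 in control cultures, so that all arrays lay within 0.20 log2 and the groups overlapped. The log2 fold change of Pxn was -0.04 (SE 0.096, 95% interval -0.27 to 0.20), and the interval spans 0.829- to 1.14-fold. Without control 2 it was 0.015. Vcl encodes vinculin, which couples talin to actin, and had 12.95, 12.64 and 13.40 log2 in CNT cultures, against 13.62, 13.11 and 13.31 in control cultures. As with Itga1, CNT 1 and CNT 2 lay below every control array and CNT 3 lay within the control range. The Vcl means were 13.00 ± 0.39 in CNT cultures and 13.35 ± 0.26 in control cultures (SD, n = 3 each), with a log2 fold change of -0.35 (SE 0.23, 95% interval -0.91 to 0.21) and an unadjusted p of 0.179 in limma's fit. Without CNT 3 it was -0.55, without CNT 2 it was -0.17 and without CNT 2 and control 1 it was -0.032. Tln1 encodes talin, the protein that switches integrins to their active form, and had 11.60, 11.38 and 11.17 log2 in CNT cultures and 11.59, 11.64 and 11.28 in control cultures. The third culture of each group was lowest, and the log2 fold change of Tln1 was -0.12 (SE 0.16, 95% interval -0.51 to 0.27).

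The 6 genes with more than 1 probe set allowed a look at whether separate probes of a gene gave the same difference. When each of the 20826 single-gene probe sets was tested by itself, 0 of the 22 passed, beside 0% of all probe sets, and the smallest adjusted p over all of them was 0.999. The mean was lower in CNT cultures for 16 of the 22 and higher for 6, beside 44.8% of all probe sets that were lower. Before adjustment, 1 of the 22 had a p under 0.05, the third probe set of Itgb5, where 1.02% of all probe sets were lower and 1.94% higher at that level. It measured 7.07, 7.58 and 6.99 log2 in CNT cultures, against 7.86, 7.59 and 7.86 in control cultures. This was the only 1 of the 22 in which the groups did not overlap, all CNT arrays being below all control arrays as in 2.43% of all probe sets (all above in 5.53%), although CNT 2 and control 2 were almost level. Its log2 fold change was -0.56 (SE 0.18, 95% interval -1.01 to -0.11), while the second Itgb5 probe set, with 10.05, 10.26 and 9.33 log2 in CNT cultures and 9.99, 10.18 and 9.69 in control cultures, gave -0.07 (SE 0.27). The 3 probe sets of Itgb5 thus gave 3 different sizes, and CNT 3 was the lowest array in each.

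The Vcl probe sets had the same direction but not the same size. The third, at 10.14, 9.04 and 10.69 log2 in CNT cultures and 10.32, 11.05 and 11.13 in control cultures, had a log2 fold change of -0.88 (SE 0.45, 95% interval -1.99 to 0.23). The second, at 12.35, 11.87 and 12.37 log2 in CNT cultures and 12.90, 11.86 and 12.07 in control cultures, had -0.08 (SE 0.30). CNT 2 was the lowest array of the lead and the third Vcl probe set, and control 2 that of the second. For Itgb1 the second probe set had 12.49, 11.88 and 12.62 log2 in CNT cultures and 12.41, 12.69 and 12.88 in control cultures, with -0.33 (SE 0.23, 95% interval -0.90 to 0.23) beside -0.05 of the lead. Again CNT 2 was the lowest array, apart from the others. Itga6 had 4 probe sets with log2 fold changes of 0.06, -0.28, -0.51 and -0.04, of which the second and the third carried SEs of 0.51 each. In both of these control 2 was the highest array, at 9.37 and 8.75 log2. The 3 probe sets of Itga7 had 0.13, 0.03 and 0.06 and those of Itgav -0.02, -0.06 and 0.02, all with intervals that included 0.

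**Figure D2:**
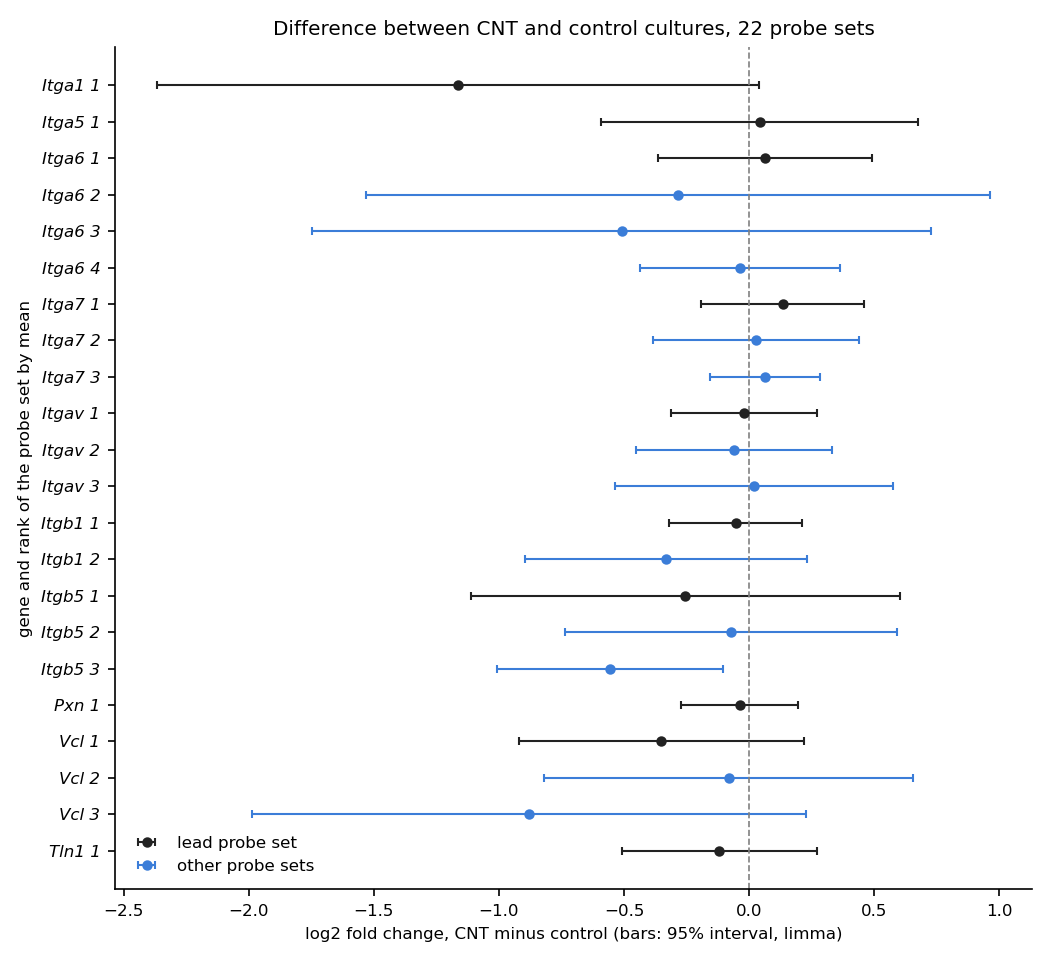
Log2 fold change (CNT minus control, n = 3 each) of the 22 single-gene probe sets of the 10 genes, with bars for the 95% interval of the fit over all 20826 probe sets. Black points are the lead probe sets and blue points the others, and the interval of the third Itgb5 probe set, from -1.01 to -0.11, is the only 1 that leaves out 0.

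Across the 10 genes the CNT arrays were more spread than the control arrays. The SD over the 3 CNT arrays exceeded that over the 3 control arrays in 9 of the 10 genes, beside 51.8% of all genes, with Pxn as the exception. A CNT array was the lowest of the 6 in 9 of the 10 genes, beside 45.3% of all genes. It was CNT 2 for Itga1, Itga5, Itgb1 and Vcl (4 of 10, beside 14.2% of all genes), CNT 3 for Itga6, Itgav, Itgb5 and Tln1 (4 of 10, beside 21.9%) and CNT 1 for Pxn. The genes are measured on the same arrays and are not independent of each other. For Itgav, Itgb5 and Tln1 the 2 lowest arrays were CNT 3 and control 3, which held for 22.5% of all genes.

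Itga1 and Vcl had the same order of arrays from high to low, namely control 1, CNT 3, control 3, control 2, CNT 1 and CNT 2. This is also the order of the fibroblast marker score, the mean log2 difference of 16 marker genes from their own means. The score was -0.25, -1.21 and 0.34 in CNT 1, CNT 2 and CNT 3, against 0.74, 0.17 and 0.20 in control 1, control 2 and control 3, with a lower mean in CNT cultures for 15 of the 16 markers and 0 past the adjusted threshold. Col1a2 and Col3a1, fibrillar collagens of connective tissue, had the highest means of the list. Col3a1 had 13.95, 13.45 and 14.30 log2 in CNT cultures and 14.49, 14.26 and 14.24 in control cultures. The 12 markers of smooth muscle and pericytes, of which Tagln and Mylk had the highest means, had the same order of arrays as the fibroblast score. They scored -0.08, -0.92 and 0.19 in CNT cultures and 0.71, -0.06 and 0.17 in control cultures, with a lower mean in CNT cultures for 11 of the 12. The score of 13 microglia and macrophage markers was 0.31, 0.37 and -0.22 in CNT cultures and -0.59, 0.12 and 0.02 in control cultures, in the reverse order of Itga1 and Vcl. RMA values have no true zero, so that no marker can be said to be absent, and the part of these cells in the levels of Itga1 and Vcl was not tested. The median log2 fold changes of the other marker lists were 0.20 for endothelium, 0.057 for Schwann cells, -0.043 for neurons and -0.066 for astrocytes, with 0 genes past the adjusted threshold.

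Itga1 and Vcl were singled out for this order after their values were seen, so that their correlations with the scores are a description. Over the 6 arrays Itga1 had a Pearson's r of 0.946 and a Spearman's rho of 1.00 with the fibroblast score, and Vcl an r of 0.960 and a rho of 1.00. Of 80 relations, 10 genes with 8 marker lists, none passed after adjustment over all genes outside the list (lowest adjusted exact two-sided permutation p 0.149 for r and 0.157 for rho). With 6 arrays this exact p cannot fall below 0.0014 for r and 0.0028 for rho before adjustment. Itga1 and Vcl had these values with the fibroblast score, so that the number of arrays largely set the outcome and nothing is concluded from it. Among the 14201 genes outside the fibroblast list, 0.979% had an r at least as high as that of Itga1 and 0.634% at least as high as that of Vcl. Equally strong negative r are not in these shares. The same order of arrays as the score was found in 1.11%. Without CNT 2 and control 1, the arrays farthest from the median score, r over the remaining 4 arrays was 0.978 for Itga1 and 0.908 for Vcl. The smooth muscle and pericyte score gave an r of 0.891 for Itga1 and 0.963 for Vcl, and 0.714 and 0.9497 without the same arrays. Its rho was 1.00 with both genes, so that the order of arrays does not set the 2 scores apart. The microglia and macrophage score, with the reverse order, gave an r of -0.872 for Itga1 and -0.934 for Vcl. Without the same arrays these were -0.831 and -0.963. Of the genes outside that list, 1.14% had the order opposite to its score. Except in sign, the order of arrays does not set this score apart from the other 2 either. Each class of spike-in signal holds 3 arrays and each group 3, which is too few for a value within either.

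The oligodendrocyte markers had their lowest score in CNT 3 and control 3, the arrays that were also lowest for Itgav, Itgb5 and Tln1. The score of 7 genes, which include the myelin genes Mbp and Cldn11, was 0.43, 0.26 and -0.55 in CNT cultures, against -0.06, 0.26 and -0.35 in control cultures, with a higher mean in CNT cultures for 4 of the 7. Since these genes share their lowest arrays with the score, their correlations are given as a description. Over the 6 arrays r was 0.819 for Itgav, 0.903 for Itgb5 and 0.797 for Tln1, and rho 0.771, 0.829 and 0.714. Among all genes outside the list, 13.3%, 6.17% and 15.0% had an r at least as high. Without CNT 3 and control 3, r over the remaining 4 arrays was 0.336 for Itgav, 0.587 for Itgb5 and -0.063 for Tln1, so that these relations rest largely on those arrays. Itgb1 had the r farthest from 0 of the 10 genes, in the opposite direction, at -0.920 with a rho of -0.829. Of all genes outside the list, 1.95% had an r as low or lower. Without the same arrays its r was -0.807. The lowest adjusted exact permutation p of the 10 genes with this score was 0.166 for r and 0.342 for rho, under the same limit of 6 arrays. The part of oligodendrocytes in these levels was not tested.

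**Figure D3:**
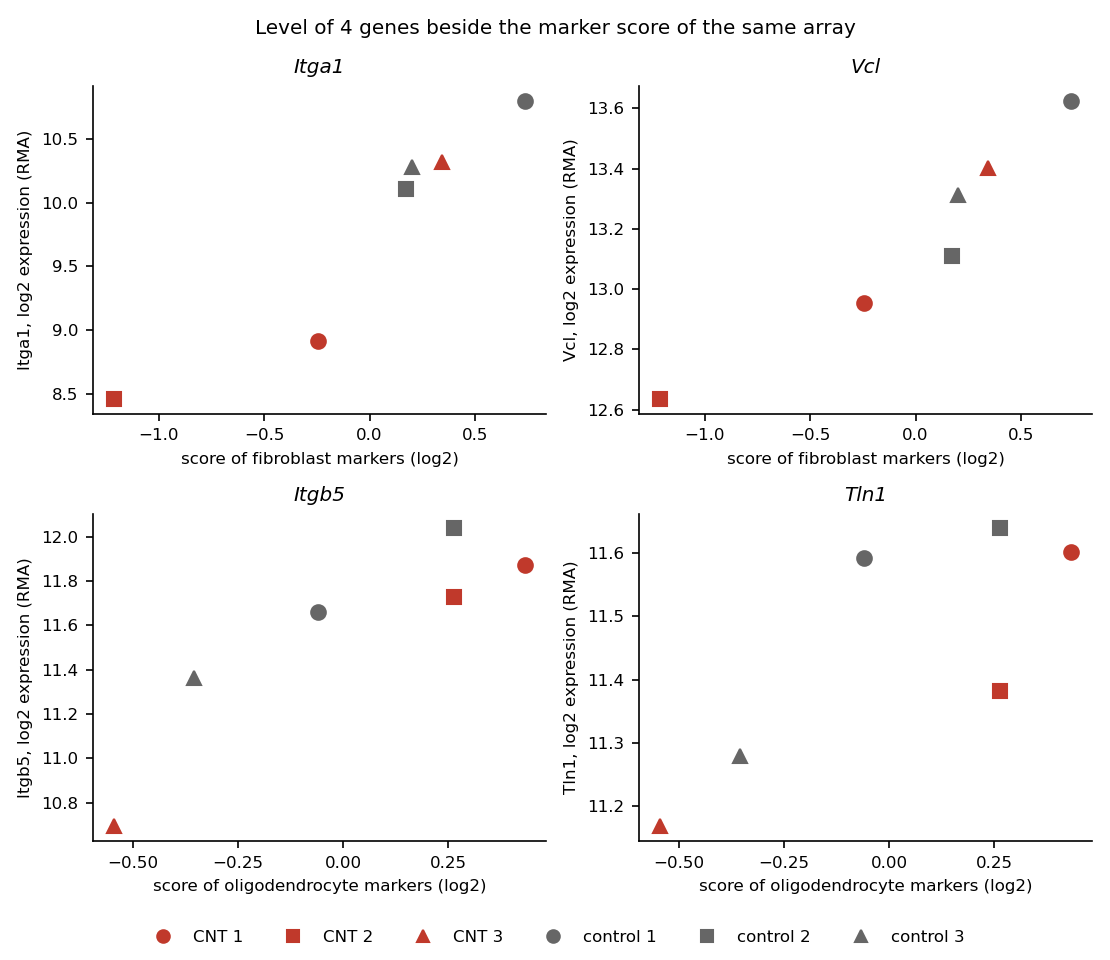
Log2 expression (RMA, vertical axes) of Itga1, Vcl, Itgb5 and Tln1 beside the marker score of the same array (log2, horizontal axes), with 1 point for each of 3 CNT (red) and 3 control (grey) cultures. CNT 2, at a fibroblast score of -1.21, is lowest for Itga1 and Vcl, and CNT 3, at an oligodendrocyte score of -0.55, is lowest for Itgb5 and Tln1.

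By its pattern over the 6 arrays, Itgb1 was most like Snx7 (Pearson's r 0.997), Ptprv (0.996), Pdp1 (0.996), Nmrk1 (0.991) and Ppp1r2 (0.990), none of which is an integrin or a focal adhesion gene. With 6 arrays, 109 genes had an r over 0.95 with Itgb1. The range of Snx7 was wider than that of Itgb1, at 10.65, 10.50 and 11.23 log2 in CNT cultures and 11.03, 10.59 and 11.16 in control cultures. In both genes CNT 3 was highest and CNT 2 lowest.

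The other genes of the same machinery were taken from 4 lists, and 0 of their measured members passed the adjusted threshold in either direction. Of 12 other integrin subunits 8 were measured, of which 3 had a higher and 5 a lower mean in CNT cultures, with a median log2 fold change of -0.11. Itga11, a collagen receptor subunit of fibroblasts, had 8.85, 6.49 and 7.83 log2 in CNT cultures and 9.64, 7.96 and 8.18 in control cultures, with a log2 fold change of -0.87 (SE 0.70). CNT 2 was again lowest and control 1 highest. Itgb3, a partner of the Itgav product, had 9.61, 9.88 and 10.19 log2 in CNT cultures and 9.59, 9.54 and 9.81 in control cultures, with 0.24 (SE 0.17). The median of the 8 genes was 0.029 without control 1.

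The 7 leukocyte integrin subunits, which include the receptors of macrophages and microglia for complement and cell surface ligands, had the highest median of the lists, at 0.51, with 6 of 7 higher and 0 of 7 with a p under 0.05 before adjustment. Itgax, an alpha subunit of complement receptors, had 11.46, 11.99 and 11.64 log2 in CNT cultures, against 9.51, 10.15 and 11.68 in control cultures. Control 3 lay within the CNT range while control 1 and control 2 lay more than 1 log2 unit below it, and the log2 fold change was 1.25 (SE 0.54, 95% interval -0.07 to 2.57). Itgb2, the beta subunit that pairs with Itgal, Itgam, Itgax and Itgad products, had 12.24, 12.46 and 12.58 log2 in CNT cultures and 10.80, 11.38 and 12.55 in control cultures, with 0.85 (SE 0.43). Itgal, an alpha subunit of lymphocytes and other leukocytes, had 0.51 (SE 0.23). Without control 1 the median of the list was 0.11. All 13 microglia and macrophage markers had a higher mean in CNT cultures, with a median log2 fold change of 0.27, and the part of these cells in the leukocyte integrins was not tested.

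Of 43 other focal adhesion proteins 40 were measured, 16 with a higher and 24 with a lower mean in CNT cultures and a median of -0.11, which was -0.0089 without control 1. In 2 of the 40 the CNT arrays were all below the control arrays, beside 2.05% of all genes. Actn1, the actin crosslinker alpha-actinin of non-muscle cells, was 1 of them. It had 13.35, 13.14 and 13.23 log2 in CNT cultures and 13.69, 13.43 and 13.42 in control cultures. Its log2 fold change was -0.28 (SE 0.12, unadjusted p = 0.0590 in limma's fit). The other, named after its values were seen, was the integrin-binding protein gene Fermt2, where CNT 3 at 13.15 log2 and control 3 at 13.17 were almost level. Flna, which encodes the actin-binding and integrin-binding protein filamin, had 12.78, 12.17 and 12.41 log2 in CNT cultures and 13.04, 12.98 and 12.64 in control cultures, with -0.44 (SE 0.19). Rsu1, a partner of the kinase-like adaptor complex around Ilk, had 0.28 (SE 0.12). Ilk itself had 13.33, 13.37 and 13.34 log2 in CNT cultures and 13.58, 13.35 and 13.29 in control cultures, with -0.06 (SE 0.11).

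The integrin ligands had the lowest median of the lists, at -0.40 over 27 of 29 genes, of which 24 had a lower and 3 a higher mean in CNT cultures. Before adjustment, 1 was lower and 1 higher with a p under 0.05, beside 0.71% and 2.41% of all genes. The lower 1 was Fbln5, an elastic fibre protein that binds integrins, with 10.31, 9.10 and 9.93 log2 in CNT cultures, against 11.65, 10.91 and 10.42 in control cultures, and a log2 fold change of -1.21 (SE 0.42, 95% interval -2.22 to -0.20, adjusted p = 0.999 by limma). The CNT arrays were all below the control arrays for Fbln5 and for Col4a1, a basement membrane collagen named after its values were seen, beside 2.05% of all genes. Col4a1 had 12.59, 10.67 and 12.74 log2 in CNT cultures and 12.96, 12.93 and 12.74 in control cultures. CNT 3 and control 3 were thus almost level, and CNT 2 stood apart. The higher 1 was Tgfb1, a growth factor whose latent form is activated by integrins of the Itgav product, with 11.32, 11.65 and 11.12 log2 in CNT cultures, against 10.80, 10.88 and 10.98 in control cultures, and a log2 fold change of 0.48 (SE 0.15, 95% interval 0.10 to 0.85, adjusted p = 0.999). All CNT arrays lay above the control arrays for Tgfb1, beside 5.94% of all genes. Ccn2, a matricellular protein, had -0.31 (SE 0.18). Col1a1, Col1a2, Col3a1 and Fbln5 also stand among the fibroblast markers, so that the medians of both lists share genes, and the median of the ligands was -0.16 without CNT 2 and -0.63 without CNT 3.

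**Figure D4:**
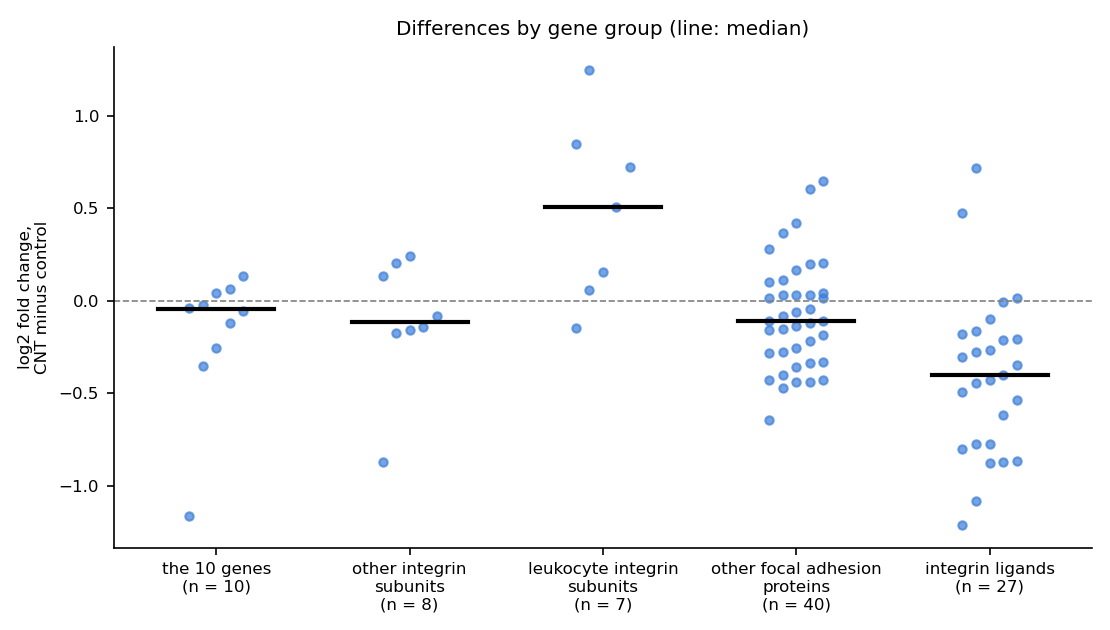
Log2 fold change (CNT minus control) of the 10 genes and of the measured genes in 4 lists, with 1 point for each gene and a line at the median. The medians are -0.046 for the 10 genes, -0.11 for other integrin subunits, 0.51 for leukocyte integrin subunits, -0.11 for other focal adhesion proteins and -0.40 for integrin ligands.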

How the data were processed

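Expression was measured in 3 CNT and 3 control cultures with 1 Affymetrix Rat Genome array each, from 100 ng of total RNA. The deposited values are log2 expression per probe set of the manufacturer, computed by the authors with RMA, of which no version is given. For the paper the authors used custom probe definitions by EntrezGene and the rank product. RMA fits all arrays together and compresses the differences of dim probe sets. The values entered the fit as deposited. The labels name TRIzol and RNeasy for the RNA, the methods another kit.

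Of 31099 probe sets, 57 controls, 436 paired with several genes and 9780 paired with none were left out, by the platform annotation of 2016. The 14217 genes, each by its probe set of highest mean, and separately the 20826 single-gene probe sets were fitted in R 4.3.3 by limma 3.58.1 (lmFit, then eBayes), without pairing, with a Benjamini-Hochberg threshold of 0.05. The fit was checked on simulated data. The rank product was not run, since it permutes genes within arrays. Precision is limited by 3 arrays per group.

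Of 192 list entries, 177 were measured. A list score is the mean over genes of the log2 value minus the gene's mean over the 6 arrays. The named genes were all 10 genes and, from each list, up to 3 by unadjusted p and up to 2 by mean. To these were added up to 2 of highest mean from each marker list and the 5 genes most like Itgb1. The genes and lists were chosen with earlier results of these data known. The alternatives were a trend and robust fit, array weights, the replicate number as a block, averaging the probe sets of each gene, dropping the 30% of genes with the lowest means, 3 normalizations (median centring, cyclic loess and quantile), dropping each array or CNT 2 with control 1, and the beta-actin difference as a covariate. Those by spike-in signal were added after the values were seen. Promoters were matched by gene in a RefSeq table of GRCr8.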

Additional observations from a re-analysis of the deposited data

How the results depend on the processing

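No gene of the 10 passed the adjusted threshold under any of the 19 alternatives, and the lowest adjusted p was 0.750, for Itga1 and Vcl without CNT 3. Before adjustment, Itga1 had a p under 0.05 in several of the alternatives that kept more than 1 array in each group. These were the trend and robust fit, array weights, replicate block, dimmest genes left out, quantile normalization, median centring and without CNT 3. Vcl had a p under 0.05 only without CNT 3. At that level 377 of all genes were higher and 89 lower in the trend and robust fit, and 532 and 223 with array weights. The counts were 227 and 67 with the dimmest left out, 248 and 168 with quantile normalization, 237 and 184 with median centring and 515 and 412 without CNT 3. Itga1, Vcl and Tln1 kept their direction in all 19, with log2 fold changes from -1.71 to -0.58, from -0.55 to -0.032 and from -0.23 to -0.0034. The trend and robust fit, the replicate block and dropping the dimmest genes leave each fold change as it is, so that they could not turn a direction. The same holds for averaging the probe sets in genes with a single probe set, such as Itga1 and Tln1. The direction of the others turned in places, and the cause was not tested. With array weights Itga5 had -0.062 and Itgav 0.037, and with the beta-actin difference as a covariate Itga5 had -0.047. With probe sets averaged per gene Itga6 had -0.19, and the median of the 10 genes was -0.16. Without CNT 2 and control 1, Itga6 had -0.16, Itgav 0.023 and Itgb1 0.011, 1 gene of the 10 did not overlap (21.5% of all genes), and the medians were 0.074 for other integrin subunits, 0.18 for leukocyte integrin subunits and 0.024 for other focal adhesion proteins. With spike-in signal as a block Itgav had 0.049. Among high spike-in arrays Itga6 had -0.090 and Pxn 0.019, and among low ones Itga5 had -0.082, Itga7 -0.0058, Itgav 0.11 and Itgb5 0.023. These values rest on a single array of 1 group, control 3 among the high and CNT 1 among the low.

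Leaving out 1 array gave ranges of -1.71 to -0.78 for Itga1, -0.17 to 0.23 for Itga5, -0.064 to 0.22 for Itga6, 0.031 to 0.21 for Itga7, -0.11 to 0.053 for Itgav, -0.12 to -0.0064 for Itgb1, -0.48 to 0.11 for Itgb5, -0.076 to 0.015 for Pxn, -0.55 to -0.17 for Vcl and -0.23 to -0.012 for Tln1. The medians ran from -0.073 to -0.030 for the 10 genes, -0.18 to 0.029 for other integrin subunits, 0.11 to 0.68 for leukocyte integrin subunits, -0.15 to -0.0089 for other focal adhesion proteins and -0.63 to -0.16 for ligands. Between 0 and 2 of the 10 genes did not overlap (Itga1 and Vcl without CNT 3, where this held for 25.1% of all genes), and between 0 and 2 of all genes passed (2 without control 3).

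The replicate numbers were not taken to pair the cultures. Same-numbered arrays' deviations from their group means correlated at -0.13, 0.36 and 0.51, and the highest value of any combination was 0.68, for CNT 1 with control 2. CNT 2 and CNT 3 each correlated most with the control of their own number, so that these values do not settle whether the cultures were paired. With the replicate number as a block the log2 fold changes were the same by construction, as each number holds an array of both groups. In that fit 0 genes passed, and 498 were higher and 179 lower at an unadjusted p under 0.05, beside 342 and 101 without the block. Array number limits all of these values.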
